A study of Mus musculus with 6 samples.

Results

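The genes described here are 8 C-type lectin receptors of myeloid cells, *Clec4d*, *Clec4e*, *Clec4n*, *Clec4a2*, *Clec5a*, *Clec7a*, *Clec12a* and *Clec2d*, together with *Card9*, the adaptor that carries the signal of several of them. They were taken by gene name, which found all 9 among the 55401 genes of the deposited table. Expression was measured by RNA sequencing of mouse bone marrow (BM) neutrophils sorted as CD45+ CD11b+ Ly6G+ cells. The Lig group comprised 3 libraries from C57BL/6 males of 8 weeks in which periodontitis was modelled by leaving silk ligatures on the molars for 14 days. The Ctrl group comprised 3 libraries from unligated males of the same strain and age, kept for the same 14 days. Each library pooled the neutrophils of 5 mice, so that the spread between libraries is one between pools, and the sources used here mention no sham procedure for the Ctrl mice of these libraries. Effects of handling and of gum inflammation therefore cannot be told apart.

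C-type lectin receptors are surface proteins that bind sugars, lipids and products of damaged cells. Activating members of the family signal through immunoreceptor tyrosine-based activation motifs (ITAMs). Mincle (*Clec4e*), MCL (*Clec4d*) and Dectin-2 (*Clec4n*) do so by way of the FcRγ chain, MDL-1 (*Clec5a*) by way of DAP12, and Dectin-1 (*Clec7a*) through a motif in its own tail. The kinase Syk is then recruited, and the complex of Card9, Bcl10 and Malt1 links it to NF-kB and to cytokine genes. DCIR (*Clec4a2*) and MICL (*Clec12a*) instead carry inhibitory motifs (ITIMs), which recruit phosphatases. In neutrophils these receptors take part in the recognition of fungi, mycobacteria and dead cells.

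The receptor genes lie close together: 8 of the 9 genes are on chromosome 6 (GRCm38), and only *Card9* lies elsewhere, at chr2:26352176-26359747 on the minus strand. *Clec4a2* (chr6:123106428-123143999, plus strand), *Clec4n* (chr6:123229843-123247021, plus), *Clec4d* (chr6:123262111-123275265, plus) and *Clec4e* (chr6:123281789-123289870, minus) are neighbours in one cluster. *Clec2d* (chr6:129180615-129186534, plus), *Clec12a* (chr6:129342691-129364416, plus) and *Clec7a* (chr6:129461591-129472779, minus) lie in another, while *Clec5a* stands alone (chr6:40574894-40585821, minus). The 250 bases before the RefSeq start site (GRCm38.p6, gene strand, 5′ to 3′) are shown for the 3 genes that were higher in Lig and for *Clec4e*, the neighbour of *Clec4d* that did not pass the test, so that their upstream sequences can be set side by side. Capitals mark matches to short motifs of transcription factors active in myeloid cells.
Clec4d: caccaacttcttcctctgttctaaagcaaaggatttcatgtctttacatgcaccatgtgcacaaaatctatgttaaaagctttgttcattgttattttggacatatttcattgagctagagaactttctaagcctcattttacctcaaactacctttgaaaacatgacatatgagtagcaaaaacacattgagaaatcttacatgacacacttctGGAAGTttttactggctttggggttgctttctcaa
Clec5a: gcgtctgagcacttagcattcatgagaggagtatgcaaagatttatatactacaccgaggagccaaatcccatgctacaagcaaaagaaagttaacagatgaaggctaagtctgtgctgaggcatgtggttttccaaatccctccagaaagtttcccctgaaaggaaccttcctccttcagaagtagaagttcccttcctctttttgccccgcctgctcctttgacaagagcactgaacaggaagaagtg
Clec4a2: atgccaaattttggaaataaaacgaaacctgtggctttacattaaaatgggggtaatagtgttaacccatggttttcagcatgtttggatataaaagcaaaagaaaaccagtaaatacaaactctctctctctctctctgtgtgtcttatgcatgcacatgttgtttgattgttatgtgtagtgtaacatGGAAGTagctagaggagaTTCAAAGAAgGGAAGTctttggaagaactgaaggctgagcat
Clec4e: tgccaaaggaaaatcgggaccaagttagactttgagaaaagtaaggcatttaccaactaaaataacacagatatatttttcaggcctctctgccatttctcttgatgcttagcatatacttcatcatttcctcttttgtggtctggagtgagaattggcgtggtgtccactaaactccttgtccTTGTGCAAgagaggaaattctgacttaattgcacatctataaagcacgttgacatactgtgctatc

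Promoter sequences were at hand for 8 of the 9 genes. The windows shown are chr6:123261857-123262106 for *Clec4d*, chr6:40585806-40586055 (minus strand) for *Clec5a*, chr6:123122440-123122689 for *Clec4a2* and chr6:123289872-123290121 (minus strand) for *Clec4e*. The RefSeq start of *Clec4a2* lies 16262 bases inside the 5′ end given in the deposited table, so that this window is upstream of one of its starts only. Searched on both strands over 300 bases, which also take in 50 bases from the start, were the ETS motif GGAAGT, C/EBP TTGCNNAA, AP-1 TGANTCA, STAT TTCNNNGAA, the IRF motif (GAAA, then NN, then GAAA) and the composite ETS-IRF motif (GGAA, then NN, then GAAA), of which the last pair can overlap. Of 32851 mouse promoters of this length, 23.8% held the ETS motif, 10.8% C/EBP, 7.81% AP-1, 8.3% STAT, 3.44% IRF and 2.72% ETS-IRF. *Clec4d* held an ETS match 35 bases before the start and an IRF match that began at the start. *Clec4a2* held ETS matches 60 and 32 bases before the start, a STAT match 42 bases before it and an AP-1 match 31 bases after it. *Clec4e* held a single C/EBP match 66 bases before the start, and *Clec5a* held no match. No motif of this set was thus found in all 3 genes that were higher in Lig. A match is a description of letters only.

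To ask whether the receptor set of BM neutrophils differed between ligated and unligated mice, the 9632 genes whose FPKM averaged 1 or more across the 6 libraries were fitted together with edgeR's quasi-likelihood test. FPKM is the deposited level, in fragments scaled to transcript length and to the mapped fragments of the library. Log2 fold changes of Lig over Ctrl come from the deposited counts after TMM scaling, and a gene is said to have risen or fallen only where its Benjamini-Hochberg adjusted p over all genes was under 0.05. All 9 genes passed the filter, 3 rose in Lig (*Clec4d*, *Clec5a* and *Clec4a2*), and none fell. In the background, 3.96% of the tested genes rose, 6.43% fell and 10.4% were called in either direction. At an unadjusted p under 0.05, 4 of the 9 genes were called, all higher in Lig, against 12.9% of all tested genes that were higher at this level, and the added gene was *Clec4e*. DESeq2 called 3 higher (7.72% of all tested genes) and 0 lower, and limma on log2(FPKM + 1) called 1 higher (1.71%) and 0 lower. The median log2 fold change of the 9 genes was 0.12, against −0.001 over all tested genes, and 8 of the 9 values were positive. This count depends on the scaling. *Clec7a*, *Clec12a* and *Card9* turned negative with library size as the only scaling, and *Clec4e* did so with limma on log2(TPM + 1). The 9 genes were chosen with earlier results of these data known. Setting their counts and median beside those of all tested genes is therefore description only, and cannot show a shift of the family.

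The FPKM of the 3 Lig libraries did not overlap that of the 3 Ctrl libraries for 4 of the 9 genes: *Clec4d*, *Clec5a* and *Clec4a2* were higher in Lig, and *Clec2d* was lower. Such separation was common here, with 34.8% of all tested genes showing it. Bulk libraries do not separate the number of cells of a type from the RNA of each cell, which cannot be told apart in any result below.

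**Figure D1:**
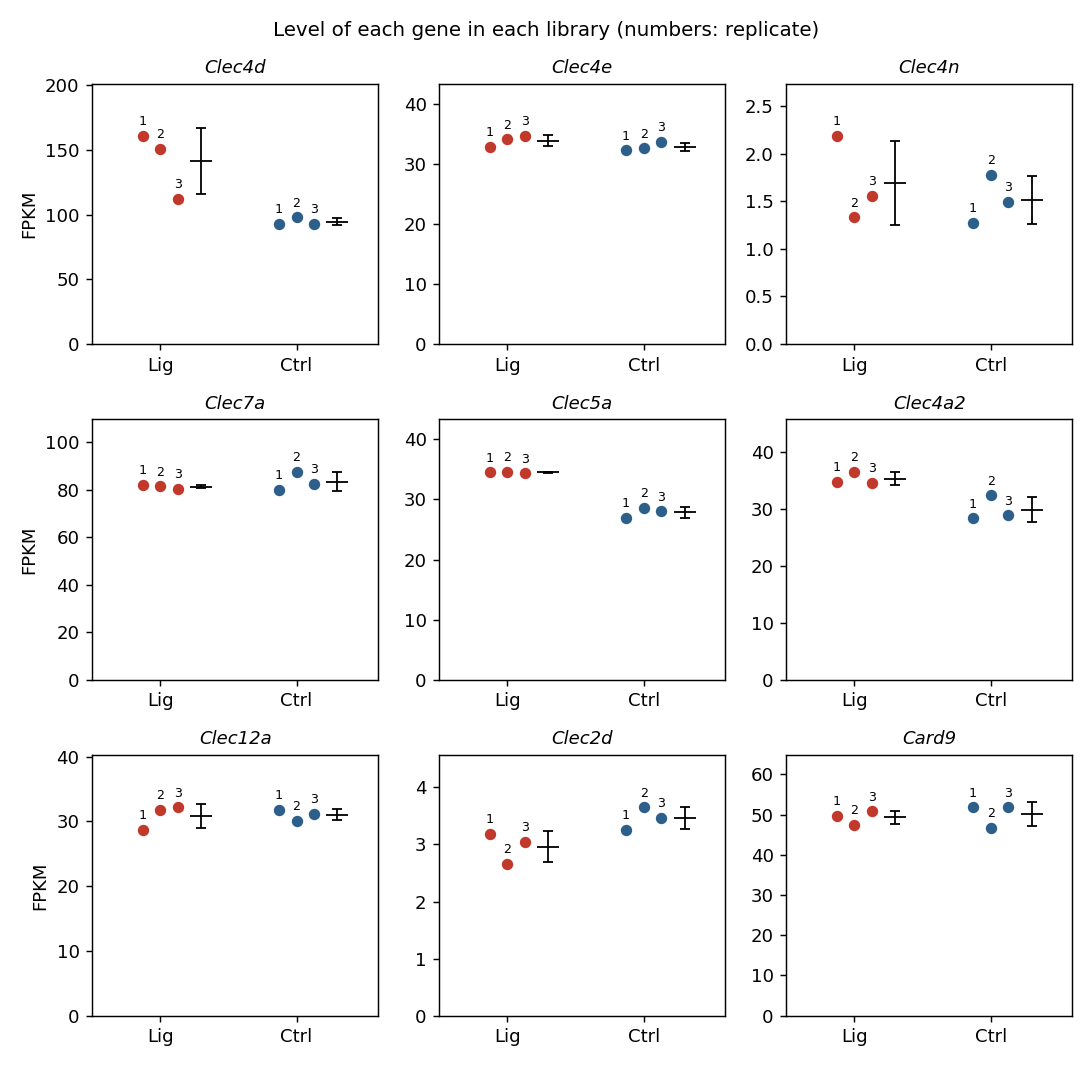
FPKM (vertical axes, from 0) of each gene in the 3 Lig libraries (red, left) and the 3 Ctrl libraries (blue, right), with the replicate number at each point and the mean ± SD as a black bar. For *Clec4d*, *Clec5a* and *Clec4a2* all Lig points lie above all Ctrl points, for *Clec2d* all lie below, and for the other genes the groups overlap.

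Among the receptors that pair with the FcRγ chain, *Clec4d* rose and *Clec4e* and *Clec4n* did not pass the test. *Clec4d*, whose product MCL binds mycobacterial glycolipid and forms complexes with Mincle, had 160.87, 150.66 and 112.32 FPKM in Lig, against 92.79, 97.81 and 92.83 FPKM in Ctrl. Every Lig library lay above every Ctrl library, and Lig replicate 3 lay nearest to Ctrl. The mean was 141.3 ± 25.6 FPKM in Lig and 94.48 ± 2.89 FPKM in Ctrl (SD, n = 3 each), so that the coefficient of variation was 18.1% in Lig and 3.06% in Ctrl. The log2 fold change was 0.66 ± 0.13 (SE), or 1.57-fold with a 95% interval of 1.27 to 1.95 (edgeR adjusted p = 0.02601). Only 151 of the 9632 tested genes had a larger log2 fold change. When one library at a time was left out, *Clec4d* was called only without Lig replicate 3 (log2 fold change 0.80, adjusted p = 0.01556). Leaving out Lig replicate 1 or 2 or any of the 3 Ctrl replicates gave adjusted p values of 0.05032 to 0.08458 with the same direction. With limma on log2(FPKM + 1) the adjusted p was 0.05276.

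*Clec4e*, which encodes Mincle, a receptor for mycobacterial cord factor and for a protein of dying cells, had 32.93, 34.17 and 34.78 FPKM in Lig, against 32.33, 32.67 and 33.72 FPKM in Ctrl. The groups overlapped, with means of 33.96 ± 0.943 FPKM in Lig and 32.91 ± 0.725 FPKM in Ctrl. Its log2 fold change was 0.12 ± 0.05 (edgeR adjusted p = 0.1709), a ratio of 1.09 with a 95% interval of 1.00 to 1.18, and it was −0.03 with limma on log2(TPM + 1). Although *Clec4d* and *Clec4e* are adjacent genes whose products associate, the interval of *Clec4d* lay wholly above that of *Clec4e*. The difference between the pair was not tested.

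*Clec4n* encodes Dectin-2, a receptor for fungal mannans. It was the least abundant of the 9 genes, with 2.19, 1.33 and 1.56 FPKM in Lig, against 1.27, 1.78 and 1.49 FPKM in Ctrl. The groups overlapped and the counts were low, at 109 to 219 per library. The log2 fold change of 0.22 ± 0.26 had a 95% interval of −0.38 to 0.82 (edgeR adjusted p = 0.6128) and takes in differences of either sign. The coefficient of variation between libraries was 26.3% in Lig and 16.9% in Ctrl. Its sign turned when Lig replicate 1 was left out (−0.01).

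*Clec7a*, which encodes the β-glucan receptor Dectin-1 and signals without a partner chain, was nearly level. It had 82.24, 81.43 and 80.58 FPKM in Lig, against 80.05, 87.73 and 82.40 FPKM in Ctrl. The Lig values lay inside the Ctrl range, and the means were 81.42 ± 0.83 FPKM in Lig and 83.39 ± 3.94 FPKM in Ctrl. After TMM scaling the log2 fold change was 0.04 ± 0.06 with a 95% interval of −0.10 to 0.18 (edgeR adjusted p = 0.7101), and it was −0.04 with library size as the only scaling. *Clec7a* was thus bounded within a narrow range on either side of 0, narrower than that of *Clec4n*.

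*Clec5a* rose in Lig with the least spread of the 3 called genes. Its product MDL-1 pairs with DAP12 and is known for driving inflammatory responses of myeloid cells, in mouse models of arthritis among others. *Clec5a* had 34.50, 34.65 and 34.33 FPKM in Lig, against 26.91, 28.59 and 28.01 FPKM in Ctrl. The lowest Lig library lay well above the highest Ctrl library, and the coefficient of variation was 0.464% in Lig and 3.07% in Ctrl. The means were 34.49 ± 0.16 FPKM in Lig and 27.84 ± 0.853 FPKM in Ctrl. The log2 fold change was 0.38 ± 0.06, or 1.30-fold with a 95% interval of 1.19 to 1.43 (edgeR adjusted p = 0.01052, limma adjusted p = 0.01663). *Clec5a* was the only one of the 9 genes called in each of the 6 fits that left out a library, with log2 fold changes of 0.35 to 0.42. As its interval overlapped that of *Clec4d*, no order of the rises of these genes can be read from them.

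Of the receptors with inhibitory motifs, *Clec4a2* rose and *Clec12a* did not pass the test. *Clec4a2*, which encodes the inhibitory receptor DCIR, had 34.79, 36.61 and 34.57 FPKM in Lig, against 28.38, 32.41 and 28.91 FPKM in Ctrl. All Lig libraries lay above all Ctrl libraries, of which replicate 2 was the highest. The means were 35.32 ± 1.12 FPKM in Lig and 29.9 ± 2.19 FPKM in Ctrl, and the log2 fold change was 0.31 ± 0.08, or 1.24-fold with a 95% interval of 1.10 to 1.41 (edgeR adjusted p = 0.04281). This call lay close to the threshold. It held without Ctrl replicate 2 (log2 fold change 0.39, adjusted p = 0.02335) and was lost without any other library (adjusted p = 0.09073 to 0.1303), with limma on log2(FPKM + 1) (adjusted p = 0.07355) and with library size as the only scaling (adjusted p = 0.06841). *Clec4a2* also has close relatives in its cluster. Of its 2921 distinct stretches of 31 bases, 10.3% occurred in other genes, mostly in *Clec4a4* and *Clec4b1*, which reached at most 0.45 and 0.13 FPKM in any library. How the counting treated such reads is not given in the sources used here, so the level of *Clec4a2* is uncertain to that extent. *Clec4d*, *Clec4e* and *Clec5a* shared none of their stretches with another gene.

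*Clec12a* encodes MICL, an inhibitory receptor for uric acid crystals that restrains responses to dead cells. It had 28.70, 31.74 and 32.17 FPKM in Lig, against 31.82, 30.08 and 31.20 FPKM in Ctrl. The groups overlapped, with means of 30.87 ± 1.89 FPKM in Lig and 31.03 ± 0.882 FPKM in Ctrl. The log2 fold change was 0.07 ± 0.06 with a 95% interval of −0.07 to 0.20 after TMM scaling (edgeR adjusted p = 0.4985), and −0.015 with library size as the only scaling. The inhibitory receptors thus differed in their calls, but the difference between them was not tested.

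*Clec2d* encodes a ligand of lectin-like receptors of natural killer cells and was the only one of the 9 genes with a negative log2 fold change in the edgeR fit. It had 3.18, 2.66 and 3.05 FPKM in Lig, against 3.26, 3.65 and 3.47 FPKM in Ctrl. The Lig libraries lay below the Ctrl libraries without overlap, but by little. On the counts, at 186 to 304 per library, the log2 fold change was −0.15 ± 0.15 (edgeR adjusted p = 0.5668), a ratio of 0.903 with a 95% interval of 0.709 to 1.15. *Clec2d* therefore did not pass the test. Of its stretches of 31 bases, 11.8% were shared with other genes, among them *Clec2i*, which reached 0.69 FPKM at most.

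*Card9*, the adaptor downstream of the activating receptors, did not pass the test either. It had 49.61, 47.45 and 50.79 FPKM in Lig, against 51.78, 46.77 and 51.78 FPKM in Ctrl. The groups overlapped, with means of 49.28 ± 1.69 FPKM in Lig and 50.11 ± 2.89 FPKM in Ctrl. The log2 fold change was 0.05 ± 0.06 with a 95% interval of −0.09 to 0.19 after TMM scaling (edgeR adjusted p = 0.6133), and −0.03 with library size as the only scaling. *Card9* overlaps the opposite-strand gene *Gm13562* over 87 of its 2293 exonic bases. As strandedness is not given in the sources used here, reads over these bases cannot be assigned, but *Gm13562* reached at most 0.43 FPKM.

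**Figure D2:**
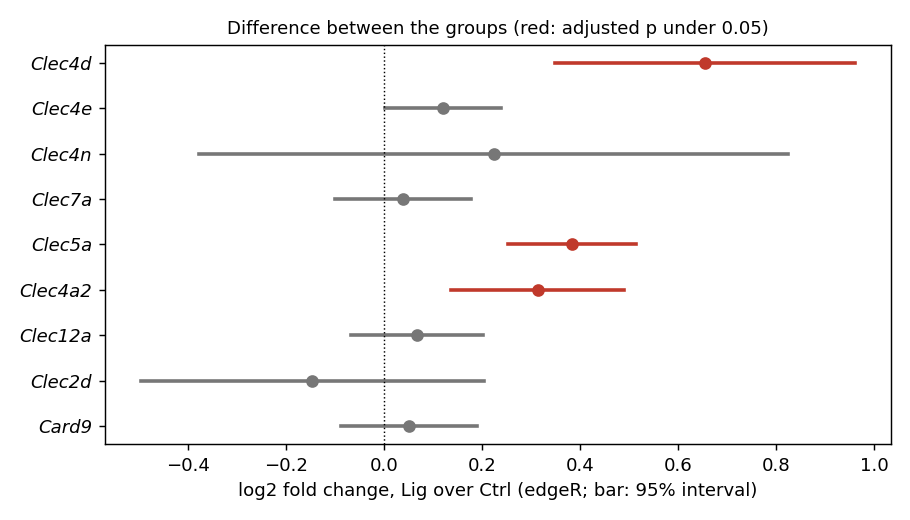
Log2 fold change of Lig over Ctrl (horizontal axis) for each gene from edgeR, with the 95% interval as a bar and genes with an adjusted p under 0.05 in red. The intervals of *Clec4d* (0.35 to 0.96), *Clec5a* (0.25 to 0.51) and *Clec4a2* (0.14 to 0.49) lie above 0, and that of *Clec4n* (−0.38 to 0.82) is the widest of the 9.

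FPKM is scaled to transcript length, which allows levels to be ordered between genes. Over all 6 libraries *Clec4d* had the highest mean (117.9 FPKM), followed by *Clec7a* (82.41 FPKM) and *Card9* (49.7 FPKM), and the ranges of these 3 genes did not overlap. *Clec4e* (33.43 FPKM), *Clec4a2* (32.61 FPKM), *Clec5a* (31.17 FPKM) and *Clec12a* (30.95 FPKM) formed a group in which the ranges of neighbours over all 6 libraries overlapped. *Clec2d* (3.212 FPKM) and *Clec4n* (1.603 FPKM) lay far below, with ranges that did not overlap each other. The MCL and Dectin-1 genes thus had the highest levels and the Dectin-2 gene the lowest. Within the middle group the order differed between the groups of mice. *Clec4a2* was above *Clec5a* in 6 of 6 libraries. *Clec4e* was above *Clec4a2* in 1 of 3 Lig libraries and 3 of 3 Ctrl libraries, and *Clec5a* was above *Clec12a* in 3 of 3 Lig libraries and 0 of 3 Ctrl libraries.

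Ratios of FPKM within a library do not depend on the scaling between libraries. The following pairs were chosen after the values had been seen, and are given without a test. The ratio of *Clec4d* to *Clec4e* was 4.88, 4.41 and 3.23 in Lig, against 2.87, 2.99 and 2.75 in Ctrl. The ratio of *Clec5a* to *Clec7a*, which were each tightly measured, was 0.420, 0.425 and 0.426 in Lig, against 0.336, 0.326 and 0.340 in Ctrl. For both pairs, and for *Clec4d* to *Clec7a* (1.73 ± 0.299 in Lig and 1.13 ± 0.0229 in Ctrl), all Lig ratios lay above all Ctrl ratios. The ratio of the inhibitory receptors, *Clec4a2* to *Clec12a*, was 1.21, 1.15 and 1.07 in Lig, against 0.892, 1.08 and 0.927 in Ctrl, and here the groups overlapped.

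**Figure D3:**
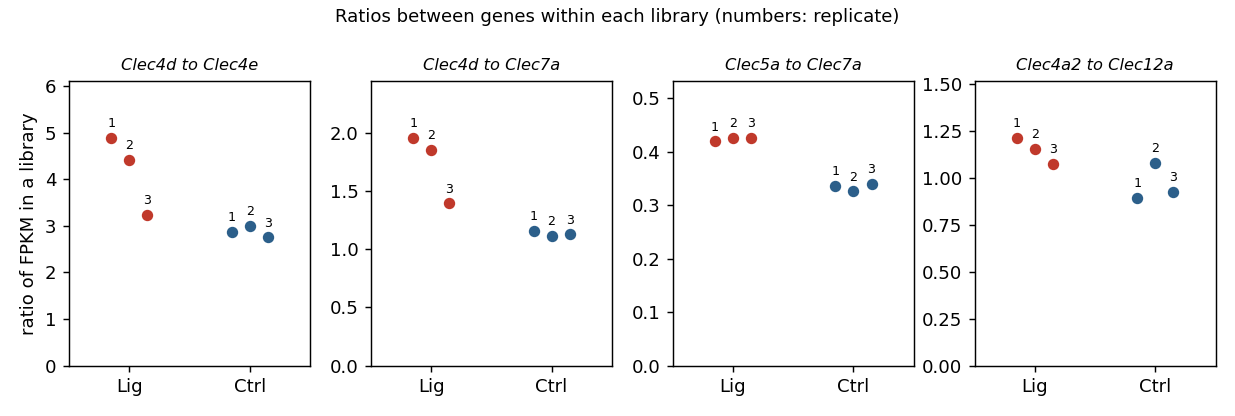
Ratio of the FPKM of a gene pair within each library (vertical axes, from 0) for Lig (red, left) and Ctrl (blue, right), with the replicate number at each point. The ratios to *Clec4e* and *Clec7a* do not overlap between the groups, and *Clec4a2* to *Clec12a* does, by Lig replicate 3 and Ctrl replicate 2.

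The summed FPKM of the 9 genes was 429.0, 420.7 and 384.2 in Lig, against 348.6, 361.5 and 353.8 in Ctrl. *Clec4d* made up 34.2% ± 4.4 of this sum in Lig and 26.6% ± 0.41 in Ctrl (SD, n = 3 each). *Clec7a* made up 19.8% ± 0.99 in Lig and 23.5% ± 0.68 in Ctrl, although its own FPKM overlapped between the groups. The *Clec4d* share was thus higher in Lig and the *Clec7a* share lower. As the shares of a library add up to the whole, a higher *Clec4d* share lowers the others by arithmetic. The lower *Clec7a* share is therefore no separate result. Computed from counts, the difference in share, Lig minus Ctrl, was 5.067 percentage points for *Clec4d*, against 7.545 from FPKM. The share of *Clec5a* was 8.4% ± 0.47 in Lig and 7.85% ± 0.11 in Ctrl, and that of *Clec4a2* was 8.6% ± 0.45 in Lig and 8.43% ± 0.47 in Ctrl.

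Most other C-type lectin genes had low levels in these cells. Of 37 further genes of the family, 31 lay under the filter, where none exceeded 1.36 FPKM in any library, and 5 of these were listed at 0 in all libraries. Of the 6 tested, 1 rose and none fell (median log2 fold change 0.09), the single call being *Ly75*, which encodes the endocytic receptor DEC-205. At an unadjusted p under 0.05, 1 gene of this list, *Cd93*, was lower. DESeq2 and limma on log2(FPKM + 1) called 0 lower, and limma on log2(TPM + 1) called *Cd93* lower (−0.48, adjusted p = 0.04449). *Ly75* averaged 15.03 ± 0.441 FPKM in Lig and 11.59 ± 0.556 FPKM in Ctrl (log2 fold change 0.45 ± 0.06, edgeR adjusted p = 0.009826). *Cd93* (−0.35, adjusted p = 0.1246), *Olr1* (0.28, adjusted p = 0.1838) and *Clec4a3* (−0.23, adjusted p = 0.5793) followed by p in edgeR and were not called there.

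Genes that act downstream moved in both directions. Of 26 adaptors and kinases, 22 were tested, of which 3 rose and 3 fell (median log2 fold change 0.11). DESeq2 called 5 higher and 5 lower in this list, and limma on log2(FPKM + 1) called 1 higher and 4 lower. At an unadjusted p under 0.05 in edgeR, 8 were higher and 5 lower. *Fcer1g*, the FcRγ chain itself, averaged 531.0 ± 24.0 FPKM in Lig and 503.8 ± 1.46 FPKM in Ctrl, and did not pass the test (0.15 ± 0.05, edgeR adjusted p = 0.1092). *Tyrobp*, which encodes the DAP12 partner of *Clec5a*, rose to 1110 ± 67.9 FPKM in Lig, against 987 ± 29.0 FPKM in Ctrl (0.24 ± 0.06, edgeR adjusted p = 0.04759), a call that limma did not make (adjusted p = 0.1136). *Syk*, the kinase onto which the activating receptors converge, fell to 140.7 ± 11.9 FPKM in Lig, against 186.6 ± 5.98 FPKM in Ctrl (−0.33 ± 0.07, edgeR adjusted p = 0.032). *Syk* and the called receptors thus differed in direction. With one library left out at a time, *Tyrobp* was called only without Lig replicate 2 (adjusted p = 0.03869 to 0.1604 over the 6 fits) and *Syk* only without Lig replicate 1 (adjusted p = 0.02429 to 0.1142), each with its direction kept. The *Tyrobp* call was also lost with library size as the only scaling (adjusted p = 0.1102), at the stricter filter of 5 FPKM (adjusted p = 0.06625) and without a filter (adjusted p = 0.06351), and the *Syk* call without a filter (adjusted p = 0.08341). *Fgr*, a Src-family kinase of the kind that phosphorylates such motifs, rose (0.22 ± 0.04, edgeR adjusted p = 0.02609), a call that, with one library left out, was kept only without Ctrl replicate 2 (adjusted p up to 0.0983). It was also lost with library size as the only scaling (adjusted p = 0.07426) and with limma on FPKM (adjusted p = 0.07055). *Vav2*, an exchange factor for small GTPases, fell (−1.03 ± 0.12, edgeR adjusted p = 0.005909) at a low level of 0.7833 FPKM in Lig and 1.683 FPKM in Ctrl. *Blnk*, the adaptor of B cell receptor signalling, also fell (−0.69 ± 0.12, edgeR adjusted p = 0.01667), a call kept only without Ctrl replicate 2 or Lig replicate 2 (adjusted p up to 0.0656). Its level was 1.56 FPKM in Lig and 2.653 FPKM in Ctrl, and the summed FPKM of 7 B cell markers was 46.86 to 52.77 in Lig and 93.57 to 118.7 in Ctrl, whose part in the result was not tested.

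Of 14 genes that act with Card9 or link it to NF-kB, 13 were tested, of which 1 rose and 1 fell (median log2 fold change 0.08). DESeq2 called 2 higher and 1 lower in this list, and limma on log2(FPKM + 1) called 0 higher and 1 lower. At an unadjusted p under 0.05 in edgeR, 3 were higher and 1 lower. The partners of Card9 were not called: *Bcl10* averaged 31.96 ± 1.7 FPKM in Lig and 29.61 ± 0.376 FPKM in Ctrl (0.19 ± 0.06, edgeR adjusted p = 0.08872). *Malt1* averaged 3.083 FPKM in Lig and 3.32 FPKM in Ctrl (−0.03 ± 0.11, edgeR adjusted p = 0.8934), and its sign turned without the filter (0.01) and without Ctrl replicate 1 (0.11). *Rel*, an NF-kB subunit, rose to 72.5 ± 3.84 FPKM in Lig, against 61.11 ± 3.84 FPKM in Ctrl (0.32 ± 0.06, edgeR adjusted p = 0.02166), a call that, with one library left out, was kept only without Ctrl replicate 1 or Lig replicate 3 (adjusted p up to 0.08601). It was also lost with library size as the only scaling (adjusted p = 0.05476) and with limma on FPKM (adjusted p = 0.0699) or TPM (adjusted p = 0.1361). *Tab2*, a ubiquitin-binding partner of the kinase TAK1, fell to 17.76 ± 1.09 FPKM in Lig, against 28.18 ± 0.361 FPKM in Ctrl (−0.59 ± 0.06, edgeR adjusted p = 0.004792). The exchange factor *Vav1*, also counted among the adaptors, missed the threshold (0.19, edgeR adjusted p = 0.0619).

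**Figure D4:**
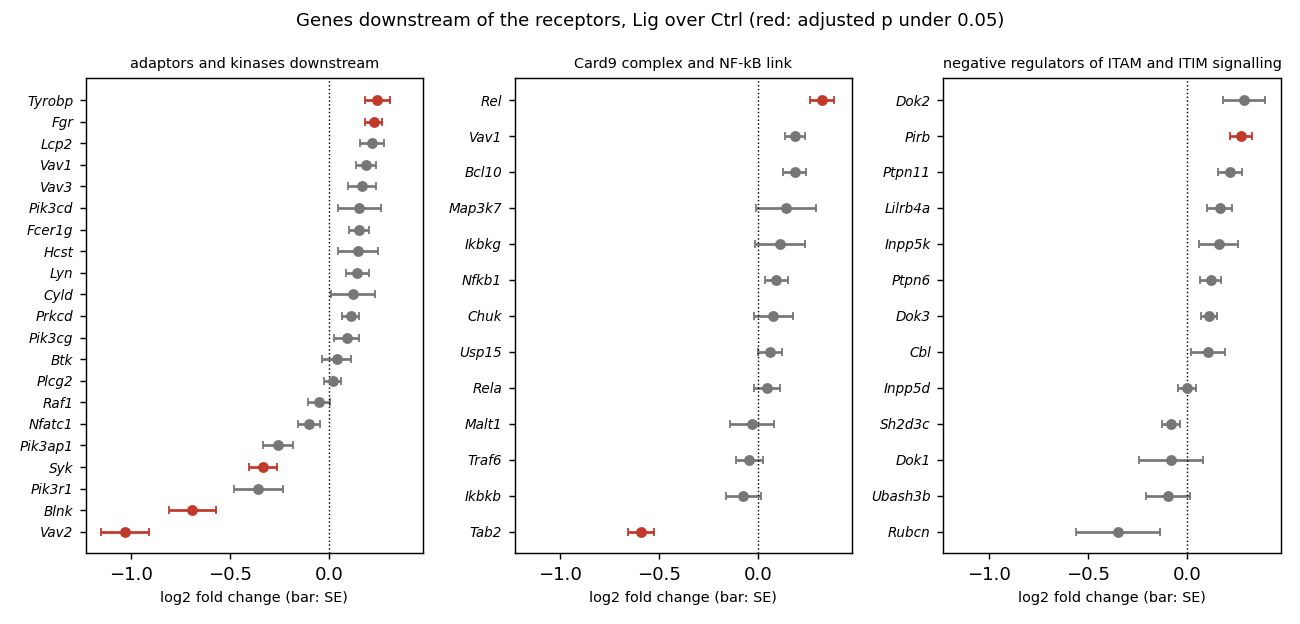
Log2 fold change of Lig over Ctrl (horizontal axes, bars: SE) from edgeR for tested genes of 3 lists, each ordered by value, with an adjusted p under 0.05 in red. *Tyrobp*, *Fgr*, *Rel* and *Pirb* lie above 0 among the called genes shown, and *Syk*, *Blnk*, *Vav2* and *Tab2* below.

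Among 15 genes listed with ITIM signalling or with the damping of ITAM signalling, 13 were tested, of which 1 rose and none fell (median log2 fold change 0.11). The called gene was *Pirb*, an inhibitory receptor of myeloid cells, with 116.9 ± 5.53 FPKM in Lig and 101.9 ± 4.24 FPKM in Ctrl (0.27 ± 0.06, edgeR adjusted p = 0.02937), a call lost without any of the 6 libraries (adjusted p = 0.0524 to 0.1083), with library size as the only scaling (adjusted p = 0.06701) and with limma on log2(FPKM + 1) (adjusted p = 0.07683). The phosphatase gene *Ptpn11* (0.22, adjusted p = 0.06083) and the adaptors *Dok2* (0.29, adjusted p = 0.1303) and *Dok3* (0.11, adjusted p = 0.1307) were not called by edgeR. At an unadjusted p under 0.05, 5 genes of this list were higher and 0 lower. DESeq2 called 2 higher and 0 lower, and limma on log2(FPKM + 1) called 0 in either direction.

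Of 21 cytokine, chemokine and early response genes known as outputs of these receptors, 18 were tested, of which 3 rose and 4 fell (median log2 fold change −0.21). *Tnf* rose to 140.6 ± 5.9 FPKM in Lig, against 93.03 ± 13 FPKM in Ctrl (0.67 ± 0.09, edgeR adjusted p = 0.009254). The neutrophil attractants *Cxcl3* (−0.74 ± 0.08, adjusted p = 0.004412) and *Cxcl1* (−0.77, adjusted p = 0.01429) fell in edgeR, as did *Ccl4* (−0.65 ± 0.10, adjusted p = 0.01073), whose call was lost without Lig replicate 3 (adjusted p = 0.05083). *Cxcl3* had 19.32 ± 1.88 FPKM in Lig and 34.08 ± 1.54 FPKM in Ctrl. At an unadjusted p under 0.05, 4 genes of this list were higher and 7 lower. DESeq2 called 3 higher and 6 lower, and limma on log2(FPKM + 1) called 1 higher and 4 lower. The edgeR calls thus had no common direction, with more genes lower than higher in each of these counts. Lower calls also outnumbered higher ones over all tested genes, with 381 higher and 619 lower in edgeR. DESeq2 gave 744 higher and 997 lower there, and limma on log2(FPKM + 1) 165 higher and 699 lower. An excess of lower calls was therefore not particular to this list. The remaining edgeR calls of this list, named after their values were seen, were *Egr1* (0.39) and *Egr3* (0.88), early response transcription factors, which rose, and *Csf3* (−1.34), the gene of G-CSF, which fell. Of these, *Egr1* was called only without Ctrl replicate 1, *Egr3* only without Lig replicate 1, and *Csf3* without Ctrl replicate 2, Lig replicate 1 or Lig replicate 2, with adjusted p values up to 0.09962 in the other fits. The level of *Csf3* was low, at 0.9167 ± 0.207 FPKM in Lig and 2.443 ± 0.293 FPKM in Ctrl. It passed the filter of 1 FPKM only through its Ctrl libraries. The *Egr1* call was also lost with library size as the only scaling (adjusted p = 0.0745), at the stricter filter of 5 FPKM (adjusted p = 0.05147) and with limma on FPKM (adjusted p = 0.09155), and the *Egr3* call with limma on FPKM (adjusted p = 0.06451) and TPM (adjusted p = 0.06881).

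The sorted cells carried the defining markers of neutrophils. The summed FPKM of 8 neutrophil markers was 73910 to 82210 in Lig and 59320 to 67280 in Ctrl, and *Ly6g*, *S100a8* and *S100a9* rose while the other 5 did not pass the test. *S100a8* and *S100a9* held 95.2% to 96.2% of this sum, and without them, a choice made after seeing the values, it was 3111 to 3159 in Lig and 2730 to 2978 in Ctrl. Monocytes and macrophages also express these receptors, and the summed FPKM of 10 of their markers was 188.8 to 215.0 in Lig and 207.7 to 214.4 in Ctrl, so that the groups overlapped. *Ly6c2* held 56.3% to 65.6% of this sum. Without it, a choice made after seeing the values, the sum was 70.94 to 78.98 in Lig and 90.58 to 93.44 in Ctrl, lower in Lig without overlap, and all 9 remaining genes had a lower mean FPKM in Lig. Of its 6 tested genes only *F13a1* was called, and it fell. Erythroid markers (204.8 to 265.8 in Lig and 691.9 to 877.0 in Ctrl), dendritic cell markers (8.76 to 9.91 in Lig and 19.23 to 21.69 in Ctrl) and T or NK cell markers (10.06 to 13.54 in Lig and 15.89 to 17.21 in Ctrl) were lower in Lig without overlap, and basophil, mast cell or eosinophil markers overlapped (89.2 to 232.2 in Lig and 153.3 to 237.5 in Ctrl). *Ccr7* alone held 6.65 to 6.92 FPKM of the dendritic cell sum in Lig and 15.05 to 17.4 FPKM in Ctrl. *Flt3* and *Cd209a* were also lower without overlap, while *Zbtb46*, *Xcr1*, *Siglech* and *Clec9a* overlapped. *Nkg7* held 4.27 to 7.14 FPKM of the T or NK cell sum in Lig and 7.1 to 8.1 FPKM in Ctrl, with overlap. There *Trbc2* and *Lck* were lower without overlap, and the other genes overlapped. No marker listed for any of these lineages was at 0 in all libraries. The called genes among them were *Ccr7*, *Trbc2*, *Lck*, 5 of 7 B cell genes and 5 of 6 erythroid genes, all lower in Lig. The part of these cells in the rise of *Clec4d*, *Clec5a* and *Clec4a2* was not tested.

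Total counts were 50605309 to 61455112 per library on the deposited scale. TMM factors were 0.97 to 0.98 in Lig and 1.01 to 1.05 in Ctrl, so that log2 fold changes after TMM lie above the ratios of deposited FPKM. The median log2 fold change of all tested genes was −0.08 with library size as the only scaling and −0.14 with limma on log2(TPM + 1). Of the 1000 genes called by edgeR, 381 rose and 619 fell, against 168 and 917 with library size alone, 165 and 699 with limma on log2(FPKM + 1), and 97 and 1232 with limma on log2(TPM + 1). *Clec4d*, *Clec5a* and *Clec4a2* stayed higher in Lig under every scaling tried, while *Clec7a*, *Clec12a* and *Card9* changed sign with library size alone and on FPKM and TPM, and *Clec4e* on TPM.

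**Figure D5:**
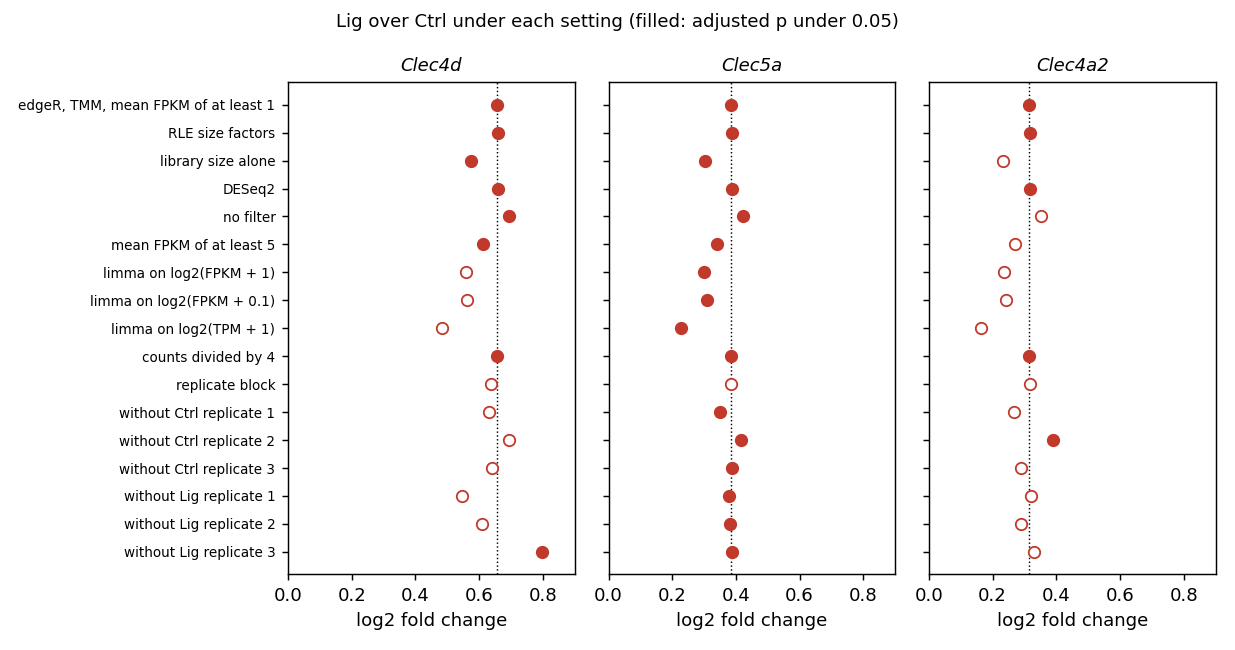
Log2 fold change of Lig over Ctrl (horizontal axes) of the 3 called genes under each setting (vertical), with filled points where the adjusted p was under 0.05 and the dotted line at the edgeR value with TMM. All points lie above 0, *Clec5a* is filled in all settings except the replicate block, and among the fits that leave out a library *Clec4d* is filled only without Lig replicate 3 (0.80) and *Clec4a2* only without Ctrl replicate 2 (0.39).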

How the data were processed

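RNA of sorted BM neutrophils was sequenced in 3 Lig and 3 Ctrl libraries. The submitters' processing notes name cutadapt 1.9, FastQC and the GRCm38 build. For the quantification program, annotation release and strandedness, the sources used here give nothing. The authors deposited FPKM, with no further scaling between libraries, and expected counts, which were whole numbers and were used as such. As 40.2% to 41.3% of counts from 1 to 16 were multiples of 4 (25% in an even spread), about 4 counts may stand for 1 read pair (12.7 to 15.4 M pairs per library), and no counting interval is given. Log2 fold changes were obtained with edgeR 4.0.16 in R 4.3.3 (TMM, quasi-likelihood, mean FPKM of at least 1, Benjamini-Hochberg, threshold 0.05, 2-sided, no covariates). The SE was the log2 fold change over the square root of F. Alternatives used limma 3.58.1 (pseudocounts 1 and 0.1), DESeq2 1.42.0, other scalings and filters, and each library left out. The fit was also run on simulated counts with known fold changes. As these held no batch or pairing effect, that run is no test of the calls reported here. The members and gene lists were chosen with earlier results of these data known. Named were the 9 genes, up to 4 tested genes with the smallest p of each related list, *Fcer1g*, *Tyrobp*, *Syk*, *Bcl10* and *Malt1*; a few genes so chosen or counted are not reported here by name. Marker genes, *Egr1*, *Egr3* and *Csf3* were named after their values were seen, to spell out small counts.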

Additional observations from a re-analysis of the deposited data

How the results depend on the processing

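The count of 1000 genes called by edgeR was 1741 with DESeq2 (744 higher and 997 lower), 604 with a filter of 5 FPKM and 54 with the replicate block, and it was 278 to 694 when a library was left out, lowest without Lig replicate 3 and highest without Ctrl replicate 2. Of the 9 genes, 3 were called, against 2 with library size alone, without the filter and with a filter of 5 FPKM, 1 with limma on FPKM (either pseudocount) or TPM, 0 with the replicate block, and 1 to 2 when a library was left out. *Clec4d* missed the threshold with limma (0.56 with a pseudocount of 1, 0.56 with 0.1, and 0.48 on TPM) and with the replicate block (0.64), and ranged from 0.55 to 0.80 when a library was left out. *Clec5a* missed it only with the replicate block (0.38), and ranged from 0.35 to 0.42. *Clec4a2* missed it with library size alone (0.23), without the filter (0.35), at the stricter filter (0.27), with limma (0.24 with either pseudocount, and 0.16 on TPM) and with the replicate block (0.32), and ranged from 0.27 to 0.39. The sign turned for *Clec4e* on TPM (−0.0324), for *Clec4n* without Lig replicate 1 (−0.0129, range to 0.37), and for *Clec7a* with library size alone (−0.0416), at the stricter filter (−0.0048), with limma (−0.0332 and −0.0336 with the pseudocounts of 1 and 0.1, −0.11 on TPM) and without Ctrl replicate 1 (−0.0003, range to 0.0899). It also turned for *Clec12a* (library size −0.015, limma −0.0087 and −0.009, TPM −0.0862) and *Card9* (library size −0.0309, limma −0.0225 and −0.0229, TPM −0.10), and for *Dok3* (−0.0399) and *Fcer1g* (−0.0032) on TPM and *Malt1* without the filter (0.01) and without Ctrl replicate 1 (0.11). The cause was not tested. *Clec4n* and *Clec2d* have no value at the stricter filter.

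On counts in place of FPKM the difference in share of the summed level, Lig minus Ctrl, was 5.067 percentage points for *Clec4d* (7.545 on FPKM), −2.593 for *Clec7a* (−3.674), 1.218 for *Clec5a* (0.556), −0.093 for *Clec2d* (−0.253), −1.283 for *Card9* (−2.121) and 0.549 for *Clec4a2* (0.178, and −0.02 without Lig replicate 3). Replicate numbers are shared between the groups, and the sources used here do not say whether same-numbered libraries were handled together. Deviations of same-numbered libraries correlated at −0.0582, −0.0787 and 0.0123, all near 0. So few values cannot settle whether the libraries were paired, and a call lost under the replicate block remains a limit of that call. Of the other named genes called by edgeR, *Ly75*, *Vav2*, *Tab2*, *Cxcl3*, *Tnf* and *Cxcl1* were called in 6 of 6 fits that left out a library, *Ccl4* in 5, *Csf3* in 3, *Blnk* and *Rel* in 2 each, *Fgr*, *Tyrobp*, *Syk*, *Egr1* and *Egr3* in 1 each, and *Pirb* in 0. All of these genes missed the threshold with the replicate block, at edgeR adjusted p values from 0.05286 (*Vav2*) to 0.1296 (*Tyrobp*). The same limit therefore holds for each of these calls.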
